A study of Homo sapiens with 4 samples.

Results

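The genes described here are CTNNB1, which encodes beta-catenin, the TCF factors TCF7 and TCF7L2, and the Wnt target genes AXIN2, RNF43, ZNRF3, LGR4, ASCL2, MYC and CCND1. They were chosen by symbol, and all 10 were found among the 19974 rows of the expression tables. To explore gene expression upon suppression of the long noncoding RNA LINC00152, RNA from HCT116, a human colon cancer cell line, was sequenced 36 h after transfection with 100 nM control siRNA (the control group, a non-targeting siRNA) or 100 nM LINC00152 siRNA (the si-LINC00152 group). Each group held 2 independent biological replicates. All 4 libraries came from a single cell line, no untransfected cells were analysed here, and the level of LINC00152 itself was not analysed here.

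Beta-catenin has a pair of roles, at cell junctions, where it links cadherins to alpha-catenin, and in the nucleus, where it turns TCF and LEF proteins from repressors into activators. In the absence of Wnt a destruction complex built on APC and the axins lets the kinases CK1 and GSK3 phosphorylate beta-catenin, which is then degraded. Wnt ligands, bound by Frizzled and LRP receptors, block that complex, and many target genes such as AXIN2, RNF43 and ZNRF3 feed back on the pathway. In the intestine the pathway maintains the stem cells of the crypt, and most colorectal cancers carry a mutation that keeps it active. HCT116 is known to have intact APC and a heterozygous deletion of a serine that marks beta-catenin for degradation; neither was read from these data.

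The deposited tables do not name their unit, and their values were taken to be FPKM, read fragments scaled to transcript length and library depth, a scale on which genes can be compared with each other. The summed values of the libraries lay between 424754 and 534311, and 14589 to 14686 genes were above 0. The number of reads is unknown. Of 7 epithelial markers, 6 reached 1 FPKM, with EPCAM at 191 to 239.5 FPKM and KRT8 at 718 to 1138 FPKM, whereas VIL1 did not exceed 0.057 FPKM. The leukocyte marker PTPRC and the fibroblast marker COL1A2 were listed at 0 in every library, the endothelial markers PECAM1 and VWF stayed at or below 0.0999 FPKM, and COL1A1 (7.02 to 7.98 FPKM) and CD68 (2.73 to 3.47 FPKM) were the markers of other cell types above 1 FPKM. The summed level of the 7 epithelial markers was 3026 and 3529 FPKM in control and 2386 and 2972 FPKM in si-LINC00152, lower in both si-LINC00152 libraries. Most of this sum came from KRT8, KRT18 and KRT19. KRT8 and KRT18 were lower in both si-LINC00152 libraries, whereas KRT19, EPCAM, CDH1 and CDX2 overlapped between the groups. The part of the keratins in the differences between the groups was not tested.

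The 10 genes covered a wide range of levels. CCND1 and MYC were above 96.9% and 96.0% of the 11222 tested genes by mean FPKM, CTNNB1 above 91.4% and TCF7L2 above 73.8%. RNF43, TCF7, ZNRF3 and AXIN2 followed at 42.1%, 22.2%, 15.5% and 12.1%, and LGR4 was near the lower end at 4.4%. ASCL2, a transcription factor of intestinal stem cells, was listed at 0 in all 4 libraries and could not be tested. Since 6 genes that exceeded 20 FPKM somewhere had a 0 elsewhere, an exact 0 may be a failed estimate. In this order the neighbours did not overlap within either group, except CCND1 and MYC, whose ranges overlapped in si-LINC00152. With the groups pooled, TCF7 and ZNRF3 overlapped, and so did ZNRF3 and AXIN2.

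**Figure D1:**
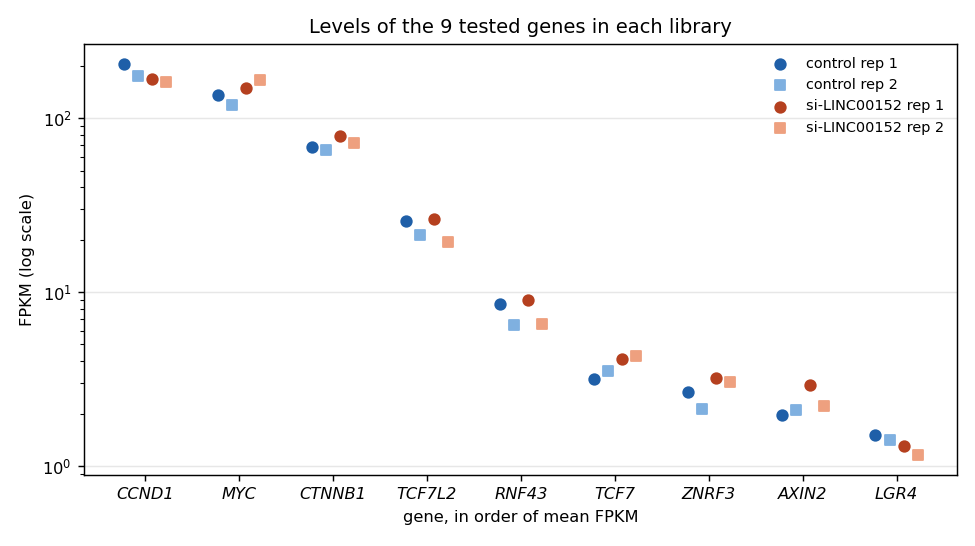
FPKM (log axis) of the 9 tested genes in each of the 4 libraries, with control in blue, si-LINC00152 in red, circles for replicate 1 and squares for replicate 2. CCND1 lay between 162 and 206 FPKM and LGR4 between 1.15 and 1.5 FPKM, and for TCF7L2 and RNF43 the replicates were farther apart than the groups.

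The first comparison asked whether CTNNB1, the effector of the pathway, differed after LINC00152 suppression. CTNNB1 had 68.7 and 65.3 FPKM in control, with a mean of 67.0 ± 2.38 (SD, n = 2). After si-LINC00152 it had 79.4 and 72.3 FPKM, with a mean of 75.8 ± 5.07 (SD, n = 2). Both si-LINC00152 libraries were above both control libraries. The difference in log2(FPKM + 1) was 0.17 with a 95% interval of -0.20 to 0.55, and limma, fitted across all 11222 tested genes, gave an unadjusted p of 0.321 and a Benjamini-Hochberg adjusted p of 1.00. It was 0.21 between the replicate 1 libraries and 0.14 between the replicate 2 libraries. CTNNB1 thus did not pass the test, and the interval leaves room for a difference in either direction. In bulk RNA, a change in the share of cells that express a gene cannot be told apart from a change in the RNA per cell.

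Beta-catenin reaches its target genes through the TCF factors. TCF7L2, the main family member of the intestinal epithelium, was at 25.7 and 21.3 FPKM in the control libraries and at 26.3 and 19.4 FPKM in the si-LINC00152 libraries. The groups overlapped, and both replicate 1 libraries were above both replicate 2 libraries. TCF7, which is both a TCF factor and a Wnt target, was at 3.16 and 3.52 FPKM in the control libraries and at 4.10 and 4.30 FPKM in the si-LINC00152 libraries. For TCF7 both si-LINC00152 libraries were the higher ones, with a log2 difference of 0.26 (standard error 0.19, unadjusted p = 0.206 by limma), and for TCF7L2 the log2 difference was -0.05 (standard error 0.20, unadjusted p = 0.808 by limma). The 95% intervals were -0.17 to 0.69 for TCF7 and -0.49 to 0.39 for TCF7L2, and both adjusted p-values by limma were 1.00.

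Over the whole TCF/LEF family the sum was 32.6 and 30.1 FPKM in control and 37.1 and 30.3 FPKM in si-LINC00152. TCF7L2 made up 78.9% and 70.8% of that sum in the control libraries and 70.8% and 63.9% in the si-LINC00152 libraries. Its share in si-LINC00152 replicate 1 was level with that in control replicate 2, so the spread between replicates was as large as the distance between the groups. TCF7L1, which acts mostly as a repressor, was at 3.73 and 5.26 FPKM in control and at 6.74 and 6.66 FPKM in si-LINC00152. LEF1 was listed at 0 in every library. These shares were worked out after the values had been seen and were not tested.

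**Figure D2:**
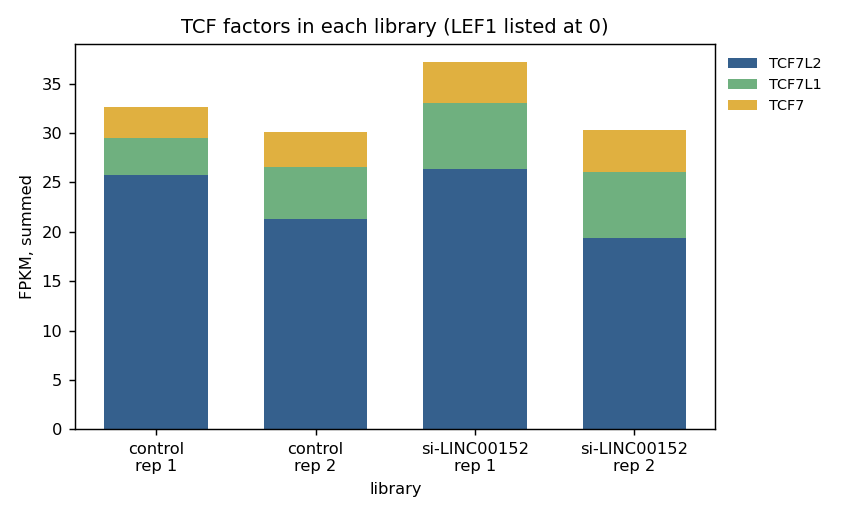
FPKM of TCF7L2, TCF7L1 and TCF7, stacked, in each of the 4 libraries. The sum was between 30.1 and 37.1 FPKM and TCF7L2 was the largest part in every library, from 63.9% to 78.9%.

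TCF proteins are known to bind a short DNA word that begins with CTTTG and ends in a pair of A or T bases. The 4 possible words, CTTTGAA as well as CTTTGAT, further CTTTGTA and finally CTTTGTT, were searched on both strands of the RefSeq promoters (GRCh38.p14), which run from 250 bases before to 50 bases after a gene start. The table held 9 promoters for 5 of the 10 genes, namely CTNNB1, TCF7, TCF7L2, RNF43 and LGR4. A word was found in 2 of these 9, against 13.8% of all 35116 promoters, and in both cases in a promoter of a TCF factor. The windows are shown because they are the only matches among the genes described here, with the 7 bases of the word in capitals.
TCF7: ggccccactggAACAAAGgaggagagagg
TCF7L2: aaaatatcaggCTTTGTTcttttgattga
The TCF7 window lies at chr5:134123557-134123585 on the plus strand, with the word starting at position -50 from an annotated start of the gene, and holds CTTTGTT on the opposite strand. The TCF7L2 window lies at chr10:113126489-113126517, also on the plus strand, with the word starting at position -133 from an annotated start, and holds CTTTGTT on the same strand. This word alone was present in 5.20% of all promoters. A match is a description of these letters and does not show binding, and the expression tables do not tell which start was used.

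AXIN2, RNF43 and ZNRF3 are targets that restrain the pathway. AXIN2 encodes a scaffold of the destruction complex and is the classical readout of beta-catenin activity. It was low, at 1.95 and 2.11 FPKM in the control libraries and at 2.92 and 2.21 FPKM in the si-LINC00152 libraries. Both si-LINC00152 libraries were above both control libraries, but replicate 2 only narrowly, with a log2 difference of 0.41 between the replicate 1 libraries and 0.04 between the replicate 2 libraries. With size factors or quantile normalization in place of the values as deposited, the groups of AXIN2 overlapped. The fitted difference was 0.23 with a 95% interval of -0.23 to 0.69 (unadjusted p = 0.299 and adjusted p = 1.00 by limma).

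RNF43 and ZNRF3 are related membrane ubiquitin ligases that remove Frizzled receptors from the cell surface. ZNRF3 was at 2.66 and 2.12 FPKM in control and at 3.18 and 3.02 FPKM in si-LINC00152. RNF43 was at 8.53 and 6.45 FPKM in control and at 8.97 and 6.59 FPKM in si-LINC00152. The groups of ZNRF3 were separate, whereas in RNF43 the replicate 1 libraries were above the replicate 2 libraries in both groups. The log2 difference was 0.28 for ZNRF3 (95% interval -0.17 to 0.73, unadjusted p = 0.196 by limma) and 0.05 for RNF43 (95% interval -0.44 to 0.53, unadjusted p = 0.839 by limma). Between same-numbered libraries it was 0.19 and 0.37 for ZNRF3 and 0.07 and 0.03 for RNF43. The ligase at the higher level was the one with the smaller difference, but whether ZNRF3 and RNF43 differed in their response was not tested, and the adjusted p was 1.00 for both by limma.

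LGR4 binds R-spondins, which protect Frizzled receptors from these ligases. LGR4 was at 1.5 and 1.41 FPKM in the control libraries and at 1.29 and 1.15 FPKM in the si-LINC00152 libraries. Here both si-LINC00152 libraries were the lower ones. The log2 difference was -0.15 with a 95% interval of -0.59 to 0.30 (unadjusted p = 0.479 and adjusted p = 1.00 by limma), and at this level the pseudocount of 1 compresses it. Of its relatives, LGR5, the crypt stem cell marker, did not exceed 0.014 FPKM in any library and LGR6 was between 0.691 and 0.834 FPKM, so neither could be tested. Among the R-spondins RSPO4 did not exceed 0.452 FPKM and RSPO1 did not exceed 0.178 FPKM.

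MYC and CCND1 are the targets that couple the pathway to growth, MYC as a transcription factor and CCND1 as cyclin D1, the partner of CDK4 and CDK6. MYC had 137 and 119 FPKM in control (128 ± 12.6, SD, n = 2), and after si-LINC00152 149 and 166 FPKM (158 ± 11.9, SD, n = 2). CCND1 had 206 and 174 FPKM in control (190.3 ± 22.5, SD, n = 2), and after si-LINC00152 169 and 162 FPKM (165 ± 4.57, SD, n = 2). Both genes had separate groups, MYC with the si-LINC00152 libraries above and CCND1 with them below. The log2 difference of MYC was 0.30 with a 95% interval of -0.11 to 0.72 (unadjusted p = 0.133 by limma), 0.13 between the replicate 1 libraries and 0.48 between the replicate 2 libraries. That of CCND1 was -0.20 with a 95% interval of -0.63 to 0.23 (unadjusted p = 0.330 by limma), with -0.29 and -0.10 between the same-numbered libraries. Neither passed adjustment, with an adjusted p of 1.00 for each by limma.

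The ratio of MYC to CCND1 was 0.662 and 0.680 in the control libraries and 0.885 and 1.02 in the si-LINC00152 libraries. In control the FPKM of CCND1 did not overlap with that of MYC, and in si-LINC00152 the ranges of the genes overlapped. This ratio was formed after the values had been seen and is given without a test.

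**Figure D3:**
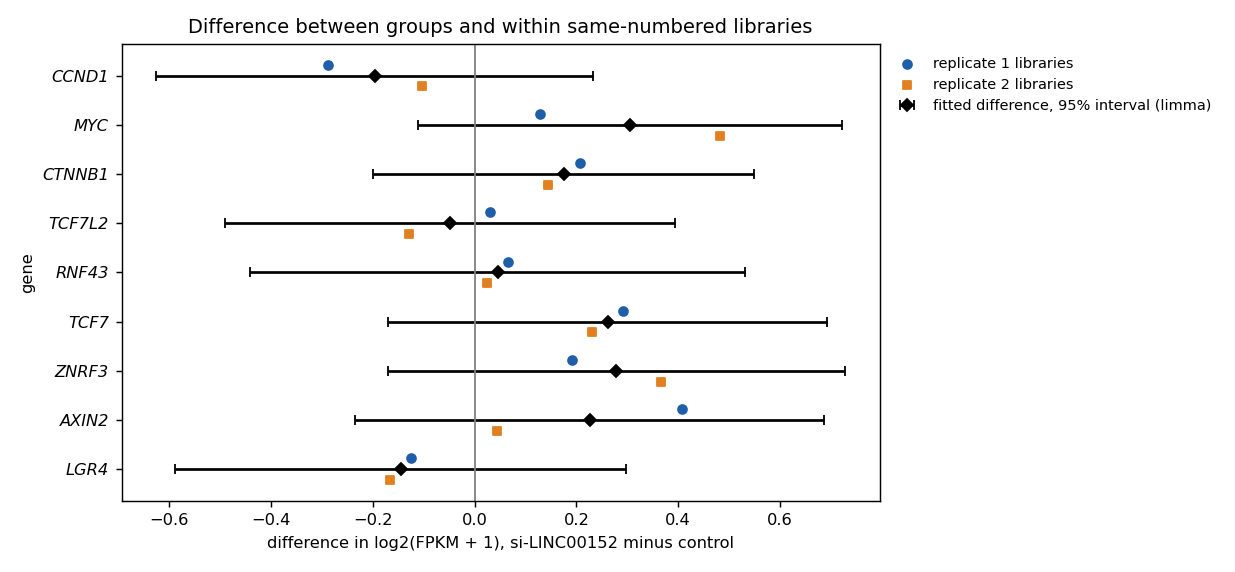
Difference in log2(FPKM + 1), si-LINC00152 minus control, for the 9 tested genes, with diamonds and bars for the limma estimate and its 95% interval, circles for the replicate 1 libraries and squares for the replicate 2 libraries. Every interval includes 0, from CCND1 at -0.20 to MYC at 0.30, and for TCF7L2 the same-numbered libraries differ in opposite directions (0.03 and -0.13).

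Of the 10 genes, 9 passed the filter of at least 1 FPKM in at least 2 libraries, and each of the 9 was above 1 FPKM in all 4. At an adjusted p under 0.05, 0 of the 9 passed by limma, and 0 passed at an unadjusted p under 0.05, a threshold passed by 4.38% of all tested genes (0.0178% at the adjusted one). With a fold above 1.5 required as well, 0 of the 9 and 1.66% of all tested genes passed by limma. The largest log2 difference was that of MYC (0.30), but with a pseudocount of 0.1 those of ZNRF3 (0.37), TCF7 (0.32) and AXIN2 (0.308) exceeded that of MYC (0.307). The groups did not overlap in 7 of the 9, with 5 higher and 2 lower in si-LINC00152, where 30.4% of all tested genes were separate in this way, 16.5% higher and 13.9% lower. This count depended on the scaling. After size factors it was 6 of 9 (AXIN2 overlapping too), with 4 higher and 2 lower. Of all 11222 tested genes, 1812 were then separate and higher and 1737 separate and lower. After quantile normalization the count was 4 of 9 (CTNNB1, AXIN2 and CCND1 overlapping too), with 3 higher and 1 lower. Of all tested genes, 1946 were then separate and higher and 1864 separate and lower. The count among the 9 was not tested. In both same-numbered pairs 6 genes were higher and 2 were lower in si-LINC00152, against 35.6% and 27.3% of all tested genes, and TCF7L2 was the exception. The median log2 difference of the 9 was 0.17, beside 0.02 over all tested genes. Between the replicate 1 libraries the median of the 9 was 0.13 against -0.03 over all tested genes, and between the replicate 2 libraries it was 0.04 against 0.07. These medians were not tested.

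The rest of the pathway was described with a list of 118 further Wnt genes, 117 of which were in the tables. Of these, 71 could be tested, and 17 of the other 46 were listed at 0 in every library. At an unadjusted p under 0.05 by limma, 4 were higher in si-LINC00152 (WNT7A, TCF7L1, PYGO2 and JUN) and 2 were lower (WNT6 and ROR2), and 0 had an adjusted p under 0.05. The shares of all tested genes were 1.89% higher and 2.5% lower. WNT7A and WNT6 are no independent part of these counts, because each reached the filter only through the group in which it was higher, which leaves 3 higher and 1 lower. The groups were separate with si-LINC00152 above in 22 of the 71 and below in 5, against 16.5% and 13.9% of all tested genes. WNT7A and SP5 among the 22 and WNT6 among the 5 reached the filter only through the group in which each was higher. Their groups therefore had to be separate. After size factors the counts above and below were 17 and 6, against 1812 and 1737 of the 11222 tested genes. After quantile normalization they were 20 and 5, against 1946 and 1864 of the 11222. The median log2 difference was 0.09, beside 0.02 over all tested genes.

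Among the ligands, 8 reached 1 FPKM in some library. WNT6 was at 3.23 and 3.90 FPKM in control and at 0.941 and 0.846 FPKM in si-LINC00152. The groups were far apart in relation to their spread, and the log2 difference of -1.27 (standard error 0.20) was the largest in the list, with an unadjusted p of 0.000110 and an adjusted p of 0.176 by limma. WNT7A was at 0.858 and 0.882 FPKM in control and at 1.67 and 1.67 FPKM in si-LINC00152, a log2 difference of 0.51 (standard error 0.20, unadjusted p = 0.0269 and adjusted p = 1.00 by limma). WNT6 entered the test only through its control libraries and WNT7A only through its si-LINC00152 libraries, so both had to differ to some extent and their p-values are not taken as support. WLS, the carrier that brings Wnt proteins to the cell surface, was at 12.1 to 15.3 FPKM with a log2 difference of -0.02, and WNT16 was at 4.58 to 7.07 FPKM with one of 0.32 (unadjusted p = 0.938 and 0.136 by limma).

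Of the 10 Frizzled genes 7 reached 1 FPKM in some library. The receptors with the highest means were RYK (24.9 to 28.7 FPKM, log2 difference 0.01) and FZD6 (16.4 to 24.6 FPKM, log2 difference -0.31), with an unadjusted p of 0.958 and 0.125 by limma. ROR2, a receptor tyrosine kinase for non-canonical Wnt ligands, was at 6.53 and 5.74 FPKM in control and at 3.74 and 4.27 FPKM in si-LINC00152. Its groups were separate, with a log2 difference of -0.51 (standard error 0.19, unadjusted p = 0.0257 and adjusted p = 1.00 by limma). The log2 difference of ROR2 was -0.43 without control replicate 1 and -0.59 without control replicate 2. It was -0.43 without si-LINC00152 replicate 1 and -0.59 without si-LINC00152 replicate 2. Each such fit leaves a lone library in a group. Dishevelled proteins relay the signal from Frizzled, and DVL1 was at 54.1 to 79.3 FPKM and DVL2 at 11.3 to 13.4 FPKM, with log2 differences of 0.28 and 0.09 (unadjusted p = 0.158 and 0.601 by limma).

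Of the genes that act on or bind beta-catenin protein, 3 of 11 tested in the destruction complex and 0 of 4 adhesion partners had separate groups, against 30.4% of all tested genes. In the destruction complex 0 passed at an unadjusted p under 0.05 by limma and 0 at an adjusted p. Of all tested genes 4.38% and 0.0178% passed. The median log2 difference of the 11 was 0.12, beside 0.02 over all tested genes. CSNK1A1, the kinase that primes beta-catenin for GSK3, was at 52.9 to 78.4 FPKM with a log2 difference of 0.07, and CSNK1D was at 47.5 to 55.7 FPKM with one of 0.15. At the junctions CTNNA1 was at 114 to 139 FPKM and JUP at 91.3 to 101 FPKM, with log2 differences of 0.0052 and 0.06. CTNNA1 encodes alpha-catenin and JUP plakoglobin, the close relative of beta-catenin.

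Of 16 tested genes of nuclear factors in the pathway, a list that mixes activators and repressors, 12 were higher in both same-numbered pairs and 1 was lower. The shares of all tested genes were 35.6% and 27.3%. The median log2 difference of the 16 was 0.27, beside 0.02 over all tested genes. TCF7L1 and the corepressor gene AES are among the 12. TCF7L1, with the values given above, had a log2 difference of 0.50 (standard error 0.21, unadjusted p = 0.0369 by limma). PYGO2, which joins BCL9 proteins to chromatin, was at 10.2 and 10.0 FPKM in control and at 14.4 and 13.2 FPKM in si-LINC00152. Its log2 difference was 0.42 (standard error 0.17, unadjusted p = 0.0376 by limma), and the adjusted p of both genes was 1.00. The log2 difference of TCF7L1 was 0.30 without control replicate 1 and 0.70 without control replicate 2. It was 0.49 without si-LINC00152 replicate 1 and 0.51 without si-LINC00152 replicate 2. Each such fit leaves a lone library in a group. With all libraries the unadjusted p of TCF7L1 by limma was 0.0656 after quantile normalization and 0.0673 without the filter. The log2 difference of PYGO2 was between 0.36 and 0.47 with any of the 4 libraries left out. The corepressor genes at the highest levels were AES, at 99.7 to 173 FPKM with a log2 difference of 0.40, and CTBP1, at 80.5 to 91.8 FPKM with one of -0.01 (unadjusted p = 0.0962 and 0.950 by limma).

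Inhibitors of the pathway were mostly low, with 11 of 17 under 1 FPKM in every library. DKK1, which blocks LRP receptors and is itself a Wnt target, had the highest level, 50.2 to 63.2 FPKM, with a log2 difference of 0.12, and KREMEN2, a receptor of the DKK proteins, was at 4.17 to 7.72 FPKM with one of 0.41 (unadjusted p = 0.515 and 0.116 by limma). For KREMEN2 the difference was 0.07 between the replicate 1 libraries and 0.75 between the replicate 2 libraries. Of 13 further targets tested, the groups were separate with si-LINC00152 above in 7 and below in 0, against 16.5% and 13.9% of all tested genes. SP5, 1 of these 7, reached the filter only through its si-LINC00152 libraries and so had to be higher. JUN, an AP-1 subunit, was at 44.3 and 41.5 FPKM in control and at 68.5 and 67.9 FPKM in si-LINC00152, with a log2 difference of 0.66 (standard error 0.16, unadjusted p = 0.00253 and adjusted p = 0.621 by limma). The targets at the highest levels were CD44, at 71.0 to 87.4 FPKM, and the AP-1 subunit FOSL1, at 55.3 to 80.7 FPKM, with log2 differences of -0.11 and 0.31 (unadjusted p = 0.559 and 0.117 by limma).

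**Figure D4:**
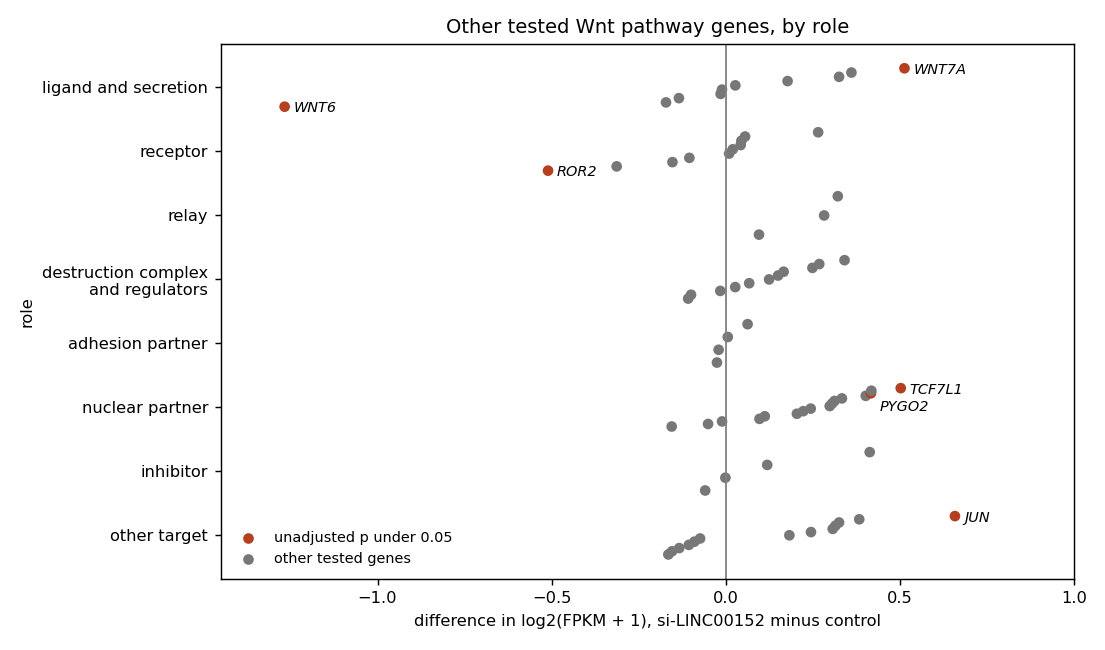
Difference in log2(FPKM + 1), si-LINC00152 minus control, for the 71 tested Wnt genes outside the 10, 1 point a gene, grouped by role, with the 6 genes at an unadjusted p under 0.05 in red and named. WNT6 at -1.27 lies farthest from 0, and the 4 adhesion partners lie between -0.03 and 0.06.

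Over the 4 libraries the genes whose values moved most like those of CTNNB1 were ZSCAN32, TAF1C and CTNS, at distances of 0.0061, 0.016 and 0.021 on the log2 scale after centring each gene on its mean. With 11221 genes compared over 4 libraries, some are close to any gene, and the likeness is given as a description only. Their log2 differences, 0.18, 0.18 and 0.19, had to lie near the 0.17 of CTNNB1, because the genes were picked by this distance.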

How the data were processed

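RNA-seq tables, 1 per library, were used as the authors deposited them, each with a gene symbol and its level. From decimals, exact zeros and unequal sums, the unit of the deposited levels was inferred to be FPKM. The submitters' processing notes name Trimmomatic, TopHat, HISAT2, HTSeq and DESeq and the build GRCh38, without versions. The annotation and the strand setting are not given in the sources used here, so antisense reads cannot be told apart. Some symbols (28) had turned into dates, none of them a gene described here. Genes were kept if 2 or more libraries reached 1 FPKM, which left 11222, and log2(FPKM + 1) was fitted with limma (3.58.1, R 4.3.3) with a trended prior variance and no further scaling; p-values were adjusted by Benjamini-Hochberg over all genes fitted. The study tested read counts, which were not used here. This scale understates differences of low genes. With 2 libraries a group, the spread is estimated largely from all genes together. The depth of the libraries is unknown, so no counting error is given. The fit was run on simulated data with independent noise of the fitted spread. These data held no effect shared by libraries of the same number. The simulation thus checks the code and does not show that the fit suits these libraries.

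The 10 genes and the lists were chosen with earlier results of these data known. The genes named are the 10, the other Wnt genes at an unadjusted p under 0.05, the 2 with the highest mean in each role, the 3 nearest to CTNNB1 and cell type markers. LGR5, LGR6, LEF1, LRP5, LRP6 and FZD9 were added after their values were seen. Alternatives to the pseudocount, filter, scaling, variance trend and pairing were run, and each library was left out in turn, which leaves a lone library assumed to vary like the others.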

Additional observations from a re-analysis of the deposited data

How the results depend on the processing

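Of the 9 tested genes, CTNNB1, TCF7, AXIN2, ZNRF3, LGR4, MYC and CCND1 kept the sign of their difference under all 11 alternatives, 4 of which (the filters, the block and the variance trend) leave the difference as it is, and TCF7L2 (-0.26 to 0.16) and RNF43 (-0.15 to 0.24) changed sign when a library was left out. With the replicate number as a block, 1 of the 9 genes passed at an unadjusted p under 0.05 by limma. This was MYC, at an unadjusted p of 0.0391 (adjusted p = 0.268 by limma). Of the 71 other Wnt genes tested, 22 passed, 19 higher and 3 lower. WNT6 and WNT7A are among the 22, and each reached the filter only through the group in which it was higher. Of all 11222 tested genes, 1893 passed, 981 higher and 912 lower. Under quantile normalization MYC passed too, as 1 of the 9 (unadjusted p = 0.0415 and adjusted p = 0.845 by limma). Of all 11222 tested genes, 647 passed under this scaling, 267 higher and 380 lower. The groups were then separate in 4 of the 9, with 3 higher and 1 lower. Of all tested genes, 1946 were separate and higher and 1864 separate and lower. The adjusted p of MYC was between 0.268 and 1.00 over the alternatives. The block brought WNT6 and JUN under an adjusted p of 0.05 by limma (0.0101 and 0.0374), where 78 of all tested genes passed. WNT6, however, passed the filter only through its control libraries, where it was high. Across genes, the correlation of libraries that share a number, after removing group means, was 0.52, but the labels do not say what a number shares.

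At an unadjusted p under 0.05 with a fold above 1.5, the other Wnt genes numbered 2 and became 5 with a pseudocount of 0.1, 1 with at least 1 FPKM in every library, and 3 to 5 with a library left out; all genes numbered 186 and became 234 to 531. At that p alone, all genes numbered 492, 796 without a filter on low values and 301 to 714 with a library left out. Among the other named genes, RYK (-0.0097) and CTNNA1 (-0.014) turned lower with size factors and CTBP1 (0.026) higher with quantile normalization. With a library left out the differences of RYK (-0.092 to 0.11), CTNNA1 (-0.14 to 0.15), CTBP1 (-0.10 to 0.082), WLS (-0.17 to 0.14), CSNK1A1 (-0.21 to 0.35) and DKK1 (-0.0036 to 0.24) changed sign. The causes were not tested. With the same limit, the adjusted p of WNT6 by limma was between 0.0101 and 0.875 over the 8 alternatives that tested it (0.0207 without si-LINC00152 replicate 1 and 0.0217 without replicate 2), and WNT7A had an unadjusted p of 0.0972 without control replicate 1 and 0.0889 without control replicate 2. With no read counts, counting error is unknown.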

Other observations

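LRP5 and LRP6 encode the paired co-receptors of Wnt signalling, and their deposited values were far apart. LRP5 was at 15.3 and 11.5 FPKM in the control libraries and at 12.1 and 12.5 FPKM in the si-LINC00152 libraries, whereas LRP6 did not exceed 0.0999 FPKM. FZD9, a Frizzled receptor under the filter, was at 0.337 and 0.502 FPKM in control and at 0.0503 and 0.0602 FPKM in si-LINC00152. These genes were named after their values had been seen, and their differences are given as values only.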
